A study of Homo sapiens with 6 samples.

Results

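The ATP-binding cassette (ABC) transporters were followed in RH36 cells, a human embryonal rhabdomyosarcoma line that lacks the PAX3/FOXO1 translocation, after transfection with the precursor of miR-27a. All probes whose gene name on the array consists of ABC, a family letter from A to G and a number were taken, which gave 68 probes of 47 genes among 41000 probes and 30484 gene names. The genes split into 10 drug efflux pumps, 17 lipid transporters, 5 mitochondrial or lysosomal members of the B family, 4 peroxisomal or lysosomal members of the D family, 4 members without a membrane domain, 2 sulfonylurea receptors and 5 others. CFTR, TAP1 and TAP2 are ABC genes too, but their symbols do not follow this pattern.

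The study hybridised RNA of RH36 cells to 6 one-colour whole-genome arrays, 3 for cells given a negative control precursor (pre-control) and 3 for cells given the miR-27a precursor (pre-miR-27a). Both groups are cultures of the same unmodified line, transiently transfected and labelled as biological replicates. For the pre-miR-27a arrays the labels give 10 nM of precursor and 48 h, whereas the study's methods state another concentration, reagent and time, and which applies to these arrays was not settled. The comparison asks which transcripts differ when miR-27a is raised in a line with little of its own.

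ABC proteins carry nucleotide-binding domains that hydrolyse ATP, and most of them use it to move a substrate across a membrane. The best known in oncology pump cytotoxic drugs out of tumour cells: ABCB1 (P-glycoprotein), ABCC1 (MRP1) and ABCG2 (BCRP). Others hand cholesterol and phospholipids to lipoproteins (ABCA1, ABCG1), serve haem synthesis in mitochondria, act in peroxisomes and lysosomes, gate potassium channels, or, without any membrane part, recycle ribosomes. A microRNA pairs through its seed, bases 2 to 8, mostly with messenger RNA 3′ ends, and lowers their translation or their amount.

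The mature strand made from the transfected precursor is shown beside its paralogue miR-27b and its cluster neighbour miR-23a, from RefSeq (GRCh38.p14), because the seed is the part by which any direct effect on an ABC transcript would act. Capitals mark the seed. miR-27a-3p lies at chr19:13836447-13836467 on the minus strand, miR-27b-3p at chr9:95085505-95085525 on the plus strand and miR-23a-3p at chr19:13836595-13836615 on the minus strand.
hsa-miR-27a-3p: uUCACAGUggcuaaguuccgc
hsa-miR-27b-3p: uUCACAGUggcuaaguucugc
hsa-miR-23a-3p: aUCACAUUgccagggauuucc
Both miR-27 strands hold the seed UCACAGU, and miR-23a holds UCACAUU. No ABC transcript was searched for seed matches here.

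The first question was which ABC genes RH36 cells express at baseline. A probe was called detected on an array when the scanner software set its flag for a signal well above background. Of the 68 ABC probes, 40 (58.82%) were detected on all 3 pre-control arrays, 44 on all 3 pre-miR-27a arrays and 16 on no array. Over all 41000 probes the share on all pre-control arrays was 68.22%, on all pre-miR-27a arrays 72.85% and on no array 20.27%. By gene, 28 of 47 had a probe detected on every pre-control array, 5 on some of them, 2 (ABCA9 and ABCC11) on pre-miR-27a arrays only, and 12 on no array. In such bulk RNA, fewer expressing cells and less RNA per cell cannot be told apart.

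The 12 genes detected on no array were ABCA6, ABCA8, ABCA13, ABCB1, ABCB4, ABCB5, ABCB11, ABCC3, ABCC12, ABCC13, ABCD2 and ABCG8. ABCB11 (the bile salt export pump) and ABCB4 (which moves phosphatidylcholine into bile) are known from liver, and ABCC13 is a pseudogene. The counts differed between the roles, though this was not tested: all 4 members without a membrane domain, all 5 organelle members of the B family and both sulfonylurea receptors were detected on all pre-control arrays, as were 3 of 4 D family genes, against 5 of 10 drug efflux pumps and 7 of 17 lipid transporters. By probe, 50.0% of the 14 drug efflux probes and 35.0% of the 20 lipid transporter probes were detected on all pre-control arrays.

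**Figure D1:**
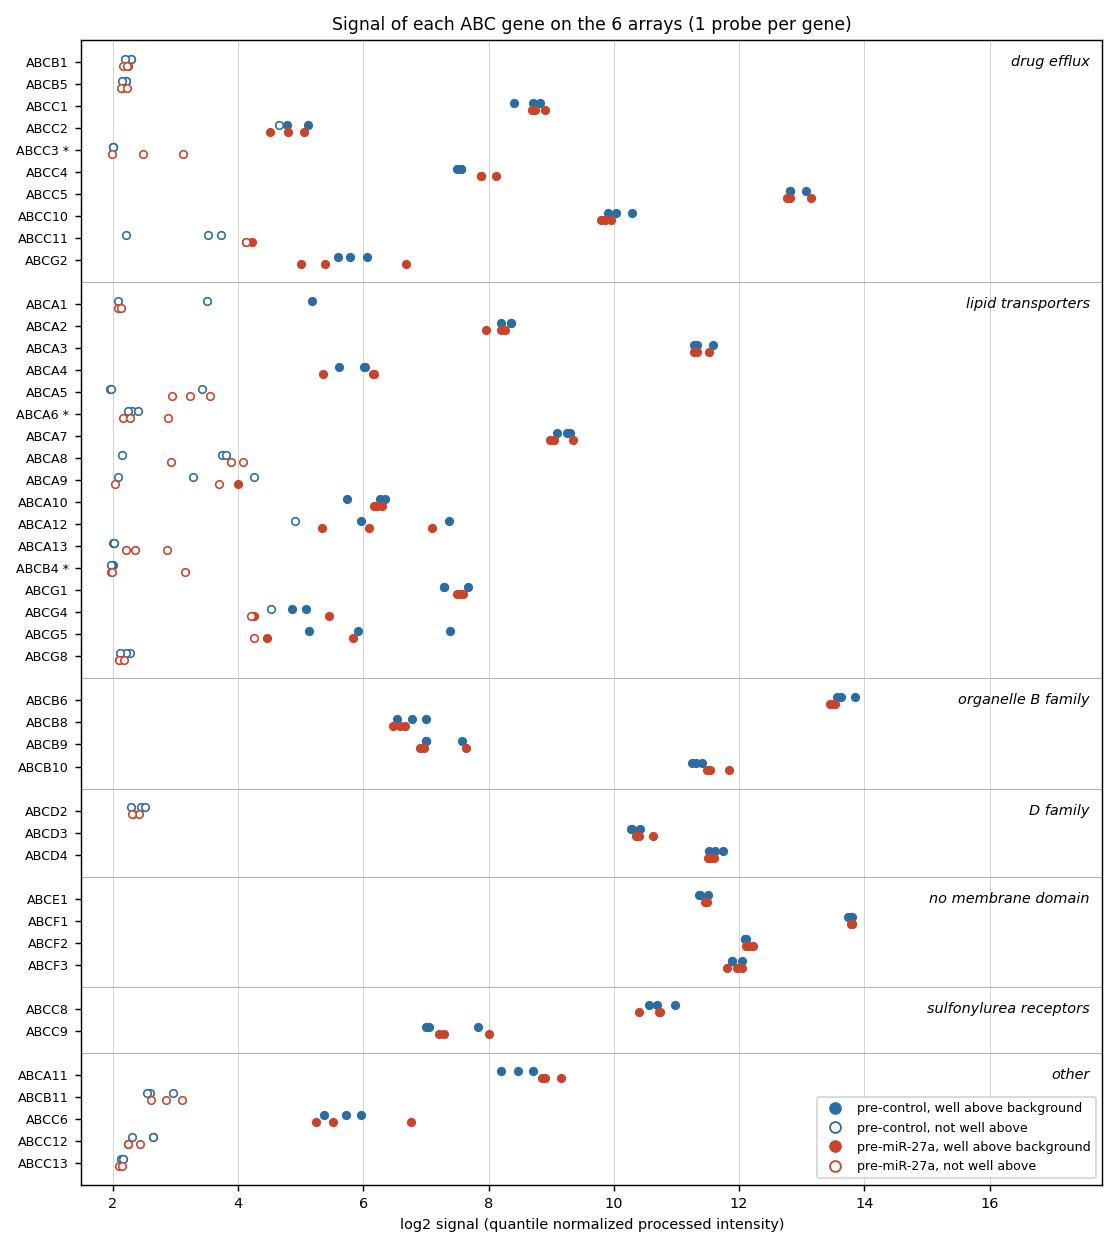
Log2 signal of 45 ABC genes on the 3 pre-control arrays (blue) and the 3 pre-miR-27a arrays (red), with 1 probe per gene, grouped by role. Filled points were well above background and open points were not. An asterisk marks ABCA6, ABCB4 and ABCC3, which had no tested probe. Open points pile up near 2 for ABCB1 and ABCB5. All points of the organelle B family, the members without a membrane domain and the sulfonylurea receptors are filled. Levels of different genes come from different probes and are not comparable with each other.

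Among the drug efflux pumps, ABCB1 was detected on no array. Its probe (NM_000927, hg18 chromosome 7, 86973249 to 86976539) is printed as 10 spots on each array, and no spot was well above background on any array. Its log2 signals were 2.29, 2.29 and 2.19 in pre-control and 2.24, 2.17 and 2.23 in pre-miR-27a cells. These 6 values lie at the floor of the arrays, where the lowest signal called well above background was 3.61 to 5.01 log2 units, so they bound the level and do not order the groups. ABCB5, a pump described in melanoma, and ABCC3 (MRP3), which exports glucuronide conjugates, were likewise detected on no array.

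The pumps that were detected belonged mostly to the C family. ABCC1 (MRP1), which exports glutathione conjugates and anthracyclines, gave 8.71, 8.40 and 8.83 in pre-control and 8.90, 8.75 and 8.70 in pre-miR-27a cells. ABCC10 (MRP7), a pump of taxanes, gave 9.91, 10.03 and 10.30 against 9.86, 9.80 and 9.96. ABCG2 (BCRP) gave 5.78, 6.06 and 5.60 against 6.68, 5.00 and 5.38, and its pre-miR-27a arrays lay on both sides of all pre-control arrays. ABCC2 (MRP2), a canalicular exporter, was near the limit, and its brighter probe was detected on 2 of 3 pre-control and on all pre-miR-27a arrays.

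The regulatory sequence of ABCB1 is shown because it is the pump best known from drug resistance and was not detected, beside that of ABCB6, whose probe alone passed the test described below. Each is the 250 bases before a RefSeq gene start (GRCh38.p14, minus strand), for ABCB1 at chr7:87600885-87601134, one of its 2 listed starts, and for ABCB6 at chr2:219218959-219219208. Capitals mark the GC box, the letters GGGCGG on either strand, a motif bound by Sp1.
ABCB1: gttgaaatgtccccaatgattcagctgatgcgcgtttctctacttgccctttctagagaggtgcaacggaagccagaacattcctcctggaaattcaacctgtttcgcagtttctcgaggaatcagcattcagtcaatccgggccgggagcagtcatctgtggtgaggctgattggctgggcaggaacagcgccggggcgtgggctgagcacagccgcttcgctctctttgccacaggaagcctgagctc
ABCB6: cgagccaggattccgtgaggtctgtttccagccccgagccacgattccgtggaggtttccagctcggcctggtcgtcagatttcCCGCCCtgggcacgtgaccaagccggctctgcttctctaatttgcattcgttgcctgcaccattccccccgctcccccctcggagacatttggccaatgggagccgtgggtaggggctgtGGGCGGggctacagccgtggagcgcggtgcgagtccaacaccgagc
The ABCB6 window held 2 matches and the ABCB1 window none. Of all 35116 RefSeq start windows, which run 250 bases before to 50 after a start, 44.95% held a match. Only 35 of the 47 ABC genes had a window, too few to compare the motif between detected and undetected genes, and a match or its absence says only whether these letters are there.

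The second question was whether any ABC gene differed between pre-miR-27a and pre-control cells. The test was limma's moderated test on quantile-normalised log2 signals over 36469 kept probes, adjusted after Benjamini and Hochberg and called at 0.05, and a gene with several probes was represented by its brightest tested probe. Of the 47 genes 44 were tested, of the 68 probes 58, and ABCA6, ABCB4 and ABCC3 were not. The test did not pair arrays by replicate number, and calls with that number as a block are given below. No ABC gene was called in either direction (0 of 44), with 5 (11.36%) at an unadjusted p under 0.05. By probe, 10 of 58 (17.24%) had an unadjusted p under 0.05, against 24.78% of all kept probes. At the level of probes 1 of 58 was called, the dimmer probe of ABCB6, which was lower (1.72%). Over all kept probes 3.88% were called lower and 3.95% higher. SAM, the test named in the study's methods, was run unpaired here, whereas the study's results describe a paired form. It called 0 of 52 ABC probes and 1815 of 31717 probes measured on every array at a false discovery rate of 5%.

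The differences of ABC genes were centred like those of the array as a whole. The median log2 difference, pre-miR-27a minus pre-control, was −0.02 over the 44 genes and −0.02 over all kept probes, with 20 genes higher and 24 lower. The medians were −0.02 for 9 drug efflux pumps and −0.02 for 15 lipid transporters, with ranges of −0.21 to 1.00 and −1.48 to 0.79. The pump median is the value of ABCB1, at the floor. Over the detected members alone the medians were 0.02 for the pumps and −0.09 for the lipid transporters, and the gap between the roles was not tested. Both extremes of the lipid range came from probes not detected on every array. Medians were −0.13 in the organelle members of the B family and −0.09 in the D family. They were 0.04 in the members without a membrane domain, 0.04 in the sulfonylurea receptors and 0.15 in the others.

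Groups of arrays that did not overlap were counted as well. They were found for 15 of 58 ABC probes (25.86%), 8 higher and 7 lower with pre-miR-27a, against 32.5% over all kept probes. The 15 include a probe of ABCA1 and that of ABCB5, both at the floor and each with 1 array set to missing. They also include the probe of ABCA13, detected on no array, and that of ABCC11, detected on no pre-control array. With the replicate number as a block, 7 of 58 ABC probes (12.07%) were called, against 14.9% over all kept probes. By their brightest probe 3 genes were called, ABCA11 and ABCC4 higher and ABCG5 lower. Arrays of the same number also had the same position on their slides. Each group was hybridised on a slide of its own, so the slide and the transfection cannot be told apart in any of these values.

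**Figure D2:**
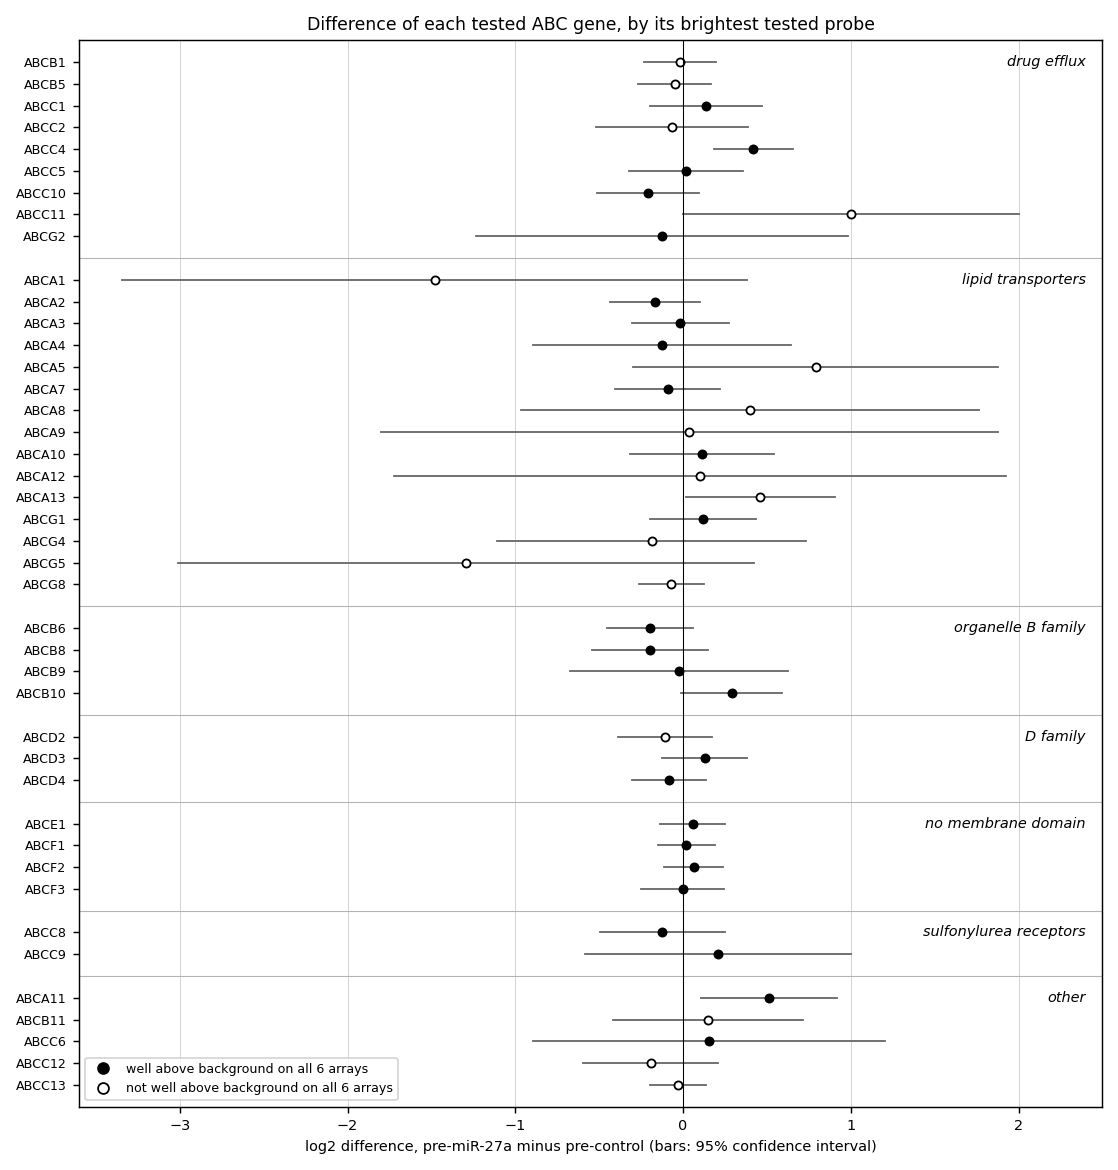
Log2 difference, pre-miR-27a minus pre-control, of 42 tested ABC genes by their brightest tested probe, with 95% confidence intervals from limma, grouped by role. Filled points were well above background on all 6 arrays. Intervals are narrow for the members without a membrane domain and reach from −3.34 to 0.38 for ABCA1. No gene shown passed the adjusted threshold without the replicate block.

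ABCB6 gave the one call without the replicate block. It is a porphyrin transporter described in the outer mitochondrial membrane and in other membranes, and it carries a blood group antigen. Its dimmer probe (NM_005689, hg18 chromosome 2, 219783247 to 219783388) gave 11.85, 11.80 and 11.91 in pre-control and 11.50, 11.41 and 11.51 in pre-miR-27a cells. All 3 pre-miR-27a arrays lay below all pre-control arrays, and the probe fell by 0.38 on the log2 scale (SE 0.08, 95% interval −0.57 to −0.19, limma adjusted p = 0.0427). An exact permutation test of 3 against 3 arrays cannot go below a two-sided p of 0.1. The brighter probe (219782742 to 219782801) gave 13.57, 13.62 and 13.86 against 13.47, 13.45 and 13.54, also without overlap, with a difference of −0.20 that did not pass (interval −0.45 to 0.06, limma adjusted p = 0.308). When single arrays were omitted, the dimmer probe's difference stayed between −0.41 and −0.35, while its limma adjusted p was 0.0972 to 0.124 and the call was lost each time. Across the whole array, 5 of these 6 omissions left 0 probes called and that of pre-control replicate 1 left 1195.

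The other organelle members of the B family had a probe detected on all arrays, and none was called by its brightest probe. ABCB8, a mitochondrial transporter, differed by −0.20 (interval −0.54 to 0.15). ABCB10, an inner membrane protein of haem synthesis, went the other way by its brightest probe, with 11.25, 11.41 and 11.31 against 11.48, 11.84 and 11.53, a difference of 0.29 (interval −0.01 to 0.59, limma adjusted p = 0.216). Its other tested probes differed by 0.30 and −0.18, so its probes do not point one way. ABCB9, a lysosomal peptide transporter, differed by −0.02 by its brighter probe and by 0.41 by its dimmer probe (limma adjusted p = 0.469, and 0.0408 with the replicate block), and that dimmer probe was detected on only 1 of 3 pre-control arrays.

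Among all probes of the drug efflux pumps, the brightest of ABCC4 and the dimmer of ABCC5 came nearest to a call. ABCC4 (MRP4) exports cyclic nucleotides, prostaglandins and nucleotide analogues. Its brightest probe (NM_005845, hg18 chromosome 13, 94484951 to 94493952) gave 7.49, 7.56 and 7.57 in pre-control and 7.88, 8.12 and 7.88 in pre-miR-27a cells. The groups did not overlap, and the difference was 0.42 (SE 0.10, interval 0.18 to 0.66) with a limma adjusted p of 0.0581, which was 0.0499 with the replicate block. Its next probe gave 7.27, 7.65 and 7.44 against 7.59, 7.89 and 7.64, with groups that overlapped and a difference of 0.25 (interval −0.09 to 0.59). The dimmest ABCC4 probe was detected on no pre-control array and on 2 pre-miR-27a arrays.

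ABCC5 (MRP5), a further exporter of cyclic nucleotides, had probes that disagreed. Its brighter probe (NM_005688, hg18 chromosome 3, 185120436 to 185120495) gave 12.81, 12.81 and 13.07 against 12.82, 12.77 and 13.14, a difference of 0.02 (interval −0.32 to 0.36). Its dimmer probe (185127879 to 185129241) gave 8.73, 8.54 and 8.96 against 9.10, 9.07 and 9.43, with no overlap and a difference of 0.46 (interval 0.07 to 0.84, limma adjusted p = 0.142, and 0.0364 with the replicate block). Both probes are listed under the same transcript accession, and the difference between them was not tested.

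For the 3 pumps best known from drug resistance no difference was called. ABCC1 differed by 0.14 (interval −0.20 to 0.47, limma adjusted p = 0.597). ABCG2 differed by −0.13 with a wide interval of −1.23 to 0.98 (limma adjusted p = 0.898), and its sign turned when pre-miR-27a replicate 2 was left out (0.22) or replicate 3 (0.03). ABCB1, at the floor, gave no difference that can be read. ABCC10 differed by −0.21 (interval −0.51 to 0.10) and ABCC2 by −0.07 (interval −0.52 to 0.39).

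ABCC11 (MRP8), an exporter of lipophilic anions known from apocrine glands, had the largest positive value of the pumps. Its signals were 2.22, 3.73 and 3.52 in pre-control and 4.23, 4.12 and 4.13 in pre-miR-27a cells, a difference of 1.00 (interval 0.00 to 2.00, limma adjusted p = 0.201). It was detected on no pre-control array and on 2 pre-miR-27a arrays, and no bounded fold could be given. Without pre-control replicate 1 the difference was 0.54. The median local background was 74.5 to 76.0 on the pre-control arrays and 52.5 to 53.0 on the pre-miR-27a arrays, and the lowest log2 signal called well above background was 4.37 to 5.01 against 3.61 to 4.27. The part of this gap in the detection of ABCC11 and ABCA9 was not tested.

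Among the lipid transporters, ABCA1, the cholesterol exporter that loads apolipoprotein A-I, was barely measurable. Its representative probe matches a cDNA clone (AK024328, hg18 chromosome 9, 106658010 to 106658069) and gave 3.51, 5.18 and 2.09 in pre-control against 2.12, 2.08 and 2.13 in pre-miR-27a cells. Only pre-control replicate 2 was well above background, and the difference of −1.48 (interval −3.34 to 0.38, limma adjusted p = 0.295) was −0.76 without that array. Of the pair of probes to the reference transcript NM_005502, one was detected on no array and the other, which was not tested, on 2 pre-miR-27a arrays. ABCG1, which passes cholesterol to high-density lipoprotein, was detected on all arrays at 7.29, 7.67 and 7.29 against 7.50, 7.59 and 7.52, a difference of 0.12 (interval −0.20 to 0.44, limma adjusted p = 0.626).

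ABCG5 and ABCG8 form an obligate pair that returns plant sterols to the gut lumen and the bile. ABCG5 (NM_022436, hg18 chromosome 2, 43893560 to 43893619) gave 7.38, 5.92 and 5.14 in pre-control and 5.83, 4.46 and 4.26 in pre-miR-27a cells. Its probe was detected on all 3 pre-control arrays but on only 2 pre-miR-27a arrays. Pre-miR-27a replicate 3, at 4.26, lay just under the lowest signal called well above background on that array (4.27). The groups overlapped and spread over 2.24 and 1.58 log2 units. Yet every pre-miR-27a array lay below the pre-control array of its own number, with differences of −1.55, −1.45 and −0.88. The difference was −1.29 (SE 0.69, interval −3.01 to 0.42) with a limma adjusted p of 0.318, which was 0.0360 with the replicate block. Without pre-control replicate 1 it was −0.68. ABCG8 was detected on no array, at 2.27, 2.21 and 2.12 against 2.10, 2.10 and 2.19.

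Of the remaining lipid transporters detected on some array none was called. ABCA3, which fills surfactant lamellar bodies in lung, gave 11.58, 11.27 and 11.33 against 11.51, 11.29 and 11.34, a difference of −0.02 (interval −0.31 to 0.28). ABCA2, an endolysosomal sterol and sphingolipid transporter of brain, differed by −0.17 (interval −0.44 to 0.10) and ABCA7, a phospholipid transporter, by −0.09 (interval −0.41 to 0.22). ABCA4, the retinoid transporter of photoreceptors, differed by −0.13 with 1 array dropped from its fit, and by 0.01 with all 6 arrays. ABCA10 differed by 0.11, and its probe is annotated to a second accession that the array design also lists for ABCA11, so its signal may hold both. ABCA12, the ceramide transporter of skin, ranged from 4.91 to 7.36 in pre-control and from 5.34 to 7.10 in pre-miR-27a cells, a spread far above its difference of 0.10. ABCA5 gave the largest positive value of the role, with 1.96, 3.43 and 1.97 in pre-control and 2.95, 3.55 and 3.23 in pre-miR-27a cells, a difference of 0.79 (interval −0.30 to 1.88) from a probe detected on no array. Its other probe, which was not tested, was detected on 1 pre-control array and on all pre-miR-27a arrays.

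Of the D family, ABCD3 (PMP70), a transporter of the peroxisomal membrane, gave 0.13 by its brighter probe and 0.27 by its dimmer probe (limma adjusted p = 0.497 and 0.184). ABCD4, which serves vitamin B12 release from lysosomes, differed by −0.08, and ABCD2 was detected on no array.

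By their brightest probes, the members without a membrane domain had narrow intervals around small differences. ABCE1, the ribosome recycling factor, gave 11.37, 11.36 and 11.50 against 11.47, 11.49 and 11.45 by its brighter probe, a difference of 0.06 (interval −0.14 to 0.25). The dimmer ABCE1 probe differed by 0.32 (interval 0.08 to 0.55, limma adjusted p = 0.114), with groups that did not overlap. ABCF1, a factor of translation initiation, gave 13.81, 13.79 and 13.73 against 13.80, 13.80 and 13.79, a difference of 0.02 (interval −0.15 to 0.19). ABCF2 by its brighter probe differed by 0.06 and ABCF3 by −0.003, with intervals of −0.12 to 0.24 and −0.25 to 0.24. The dimmer ABCF2 probe differed by 0.10 (interval −0.08 to 0.29).

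The sulfonylurea receptors are the regulatory subunits of ATP-sensitive potassium channels and transport nothing themselves. ABCC8 (SUR1), known from pancreatic beta cells, gave 10.97, 10.56 and 10.70 against 10.72, 10.41 and 10.73, a difference of −0.12 (interval −0.50 to 0.25). ABCC9 (SUR2), known from heart and muscle, gave 7.04, 7.00 and 7.84 against 7.20, 7.29 and 8.01 by its tested probe, a difference of 0.21 (interval −0.59 to 1.00). Replicate 3 was the highest array of both groups on all 3 ABCC9 probes, by 0.81, 1.19 and 0.91 over the mean of replicates 1 and 2 in pre-control and by 0.77, 1.06 and 1.42 in pre-miR-27a cells.

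**Figure D3:**
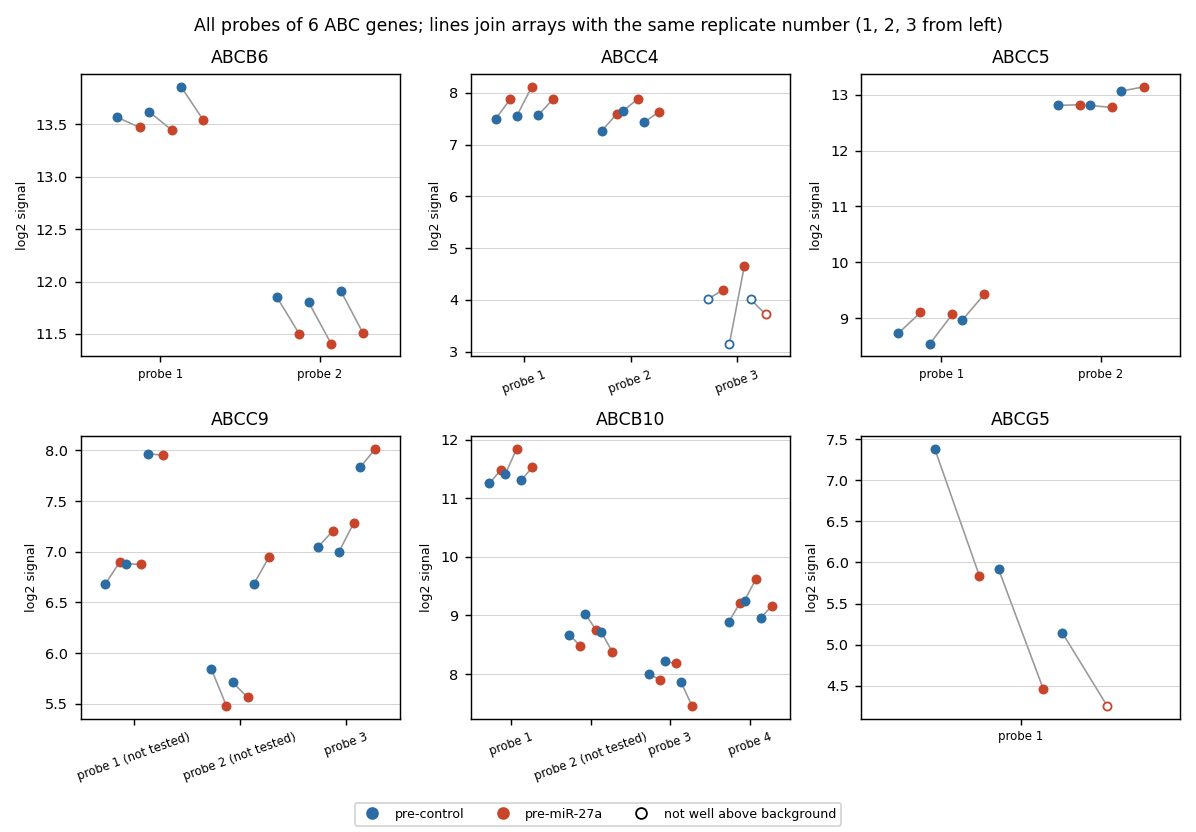
Log2 signal of every probe of ABCB6, ABCC4, ABCC5, ABCC9, ABCB10 and ABCG5, with pre-control arrays in blue, pre-miR-27a arrays in red, open points not well above background, and lines joining arrays of the same replicate number (1, 2 and 3 from left to right within a probe). All lines of ABCB6 and ABCG5 run down, those of ABCC5 run up on 1 probe and stay level on the other, and replicate 3 stands highest on all 3 ABCC9 probes in both groups.

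Of the other members, ABCA11 (now a pseudogene, ABCA11P) gave 8.72, 8.19 and 8.47 in pre-control and 9.16, 8.86 and 8.90 in pre-miR-27a cells, a difference of 0.51 (interval 0.11 to 0.92, limma adjusted p = 0.125, and 0.0402 with the replicate block). ABCC6, whose loss causes pseudoxanthoma elasticum, had 3 probes that differed by 0.15, −0.58 and −0.28. Only the probe with −0.58, at 5.73, 5.87 and 5.49 against 5.31, 5.27 and 4.76, had groups without overlap (limma adjusted p = 0.129, and 0.0398 with the replicate block). ABCC6 has near-identical pseudogenes on chromosome 16, and which copy each probe reads is uncertain.

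Genes that work with the ABC members were read from lists, each by its brightest tested probe. The counts are set beside the 3.88% lower and 3.95% higher of all probes. Of 20 genes of sterol efflux and its liver X receptor control, 17 were detected on all pre-control arrays. Of these 20, 1 rose, RXRA, the shared partner of that receptor, by 0.62 (limma adjusted p = 0.0377). RXRA has 2 probes on the array, and the other is not given here. APOE, an acceptor of cholesterol, differed by −0.67 (limma adjusted p = 0.401, and 0.0340 with the replicate block). NR1H2, a liver X receptor, differed by −0.34 (limma adjusted p = 0.120, and 0.0479 with the block). Of 12 regulators and conjugating enzymes of drug efflux, 10 were detected and 0 were called. Among them HIF1A, the hypoxia factor, differed by −0.30 (limma adjusted p = 0.114, and 0.0492 with the block). Of 7 measured partners of the translation factors all were detected and 1 rose, ETF1, the release factor that works just before ABCE1, by 0.60 (limma adjusted p = 0.0301). Of the 2 channel pores that pair with the sulfonylurea receptors, KCNJ11 gave a mean of 7.36 in pre-control and 7.92 in pre-miR-27a cells and rose by 0.56 (limma adjusted p = 0.0473), while KCNJ8 differed by −0.03. Each of these 3 calls was lost with any single array left out, at a limma adjusted p of 0.0581 or more. Every omission but that of pre-control replicate 1 left 0 probes called over the whole array, so the losses do not single out these genes. Of the ABC genes with other symbols, TAP1 and TAP2 were detected on all pre-control arrays, CFTR on none, and 0 were called.

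As a check of the line, 8 of 9 skeletal muscle genes, among them MYOD1, MYOG and DES, were detected on all pre-control arrays and MYF5 on no array. MYOD1 and MYOG, which drive muscle differentiation, differed by −0.45 and −0.95 (limma adjusted p of 0.0787 and 0.140, and 0.0363 and 0.0334 with the block). Of markers of other cell types, PTPRC, CDH1, KRT5, PECAM1 and APOA2 were detected on no array. KRT8, CD3E and CD14 were detected on all arrays and fell by 0.70, 0.44 and 0.71 with pre-miR-27a (limma adjusted p of 0.0176, 0.0348 and 0.0223), and their part in the ABC values was not tested. These calls were lost with any single array left out, except that of KRT8 without pre-control replicate 1. That was the only omission that left any probe called over the whole array, so the losses do not single out these genes. On the 6 arrays 69.93% to 77.98% of the 43376 spots were well above background and 0 were saturated.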

How the data were processed

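RNA of RH36 cells was measured on Agilent one-colour arrays, 3 pre-control and 3 pre-miR-27a. How many arrays there are limits the precision. The authors deposited spot intensities from Feature Extraction 10.5.1.1, background-subtracted within each array and not normalized between arrays, with quality flags, and probe positions on hg18. They also deposited a table of log2 values (33169 probes, 52 of them ABC probes), whose differences from the values computed here had a median of 0.0041 and a maximum of 1.05. It was used as an alternative, and 0 per-sample columns were left out.

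Control spots were removed, log2 processed intensity was quantile normalized, spots with a found flag of 0 were set to missing, replicate spots were averaged, and probes missing on more than 1 array were dropped. limma 3.58.1 in R 4.3.3, with files read by the package data.table, version 1.17.8, compared the groups over all kept probes, with Benjamini-Hochberg adjustment at 0.05 and 95% intervals. A log2 difference is pre-miR-27a minus pre-control. SAM was written out in its unpaired form, with 20 relabellings. Both tests were tried on simulated data with noise independent between arrays, so pairing by number was not simulated. The planted differences were larger than most of those reported here. Python 3.11.15 (pandas 2.3.3, matplotlib 3.10.9) read the sequences and drew the figures. The study's methods named quantile normalization, the found flag and SAM, and limma was preferred for its errors.

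Named genes were ABCB1, ABCC1, ABCG2, ABCA1 and ABCG1, every gene with a probe past the threshold with or without the replicate block, the largest rise and fall in each role among detected members, and all undetected genes. Others were named after their values were seen. The members, roles and lists were chosen with earlier results of these data known. Replicate numbers come from the labels. The correlation over 31717 probes of deviations from the group means was 0.40, 0.46 and 0.41 between same-numbered arrays and −0.27 to −0.12 otherwise. Deviations cancel within a group, so the negative values follow from the positive ones. The positive values were taken as pairing by number, and blocked values are given where they changed a call. Same-numbered arrays also had the same slide position, so pairing and position cannot be told apart. Alternatives were other scalings, background corrections, filters and flags, the deposited log2 values, the replicate block, another variance model, the mean of a gene's probes, SAM, and leaving out each array. The values of 2 genes are not reported here, though both stay in the counts.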

Additional observations from a re-analysis of the deposited data

Results flagged for a closer look

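The filter on found spots removed 833 probes although all 6 arrays had them well above background. Of these, 3 were ABC probes, so their signals did not enter the main comparison. Taken without the filter, the ABCB10 probe gave log2 signals of 8.67, 9.03 and 8.72 in pre-control and 8.48, 8.75 and 8.38 in pre-miR-27a cells, a difference of −0.27, opposite in sign to the brightest ABCB10 probe (0.29). A probe of ABCC9 gave 6.68, 6.88 and 7.97 against 6.90, 6.87 and 7.95, a difference of 0.066. The remaining ABCC9 probe gave 5.84, 5.71 and 6.68 against 5.48, 5.56 and 6.94, a difference of −0.082. The main fit did not test these differences, and no test of them is given here.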

How the results depend on the processing

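Over all probes, scaling to the 75th percentile called 3256 with 39.16% of them higher, against 50.42% of the 2856 calls under quantile normalization, and moved the median difference of all probes from −0.02 to −0.09. The ABC genes called were then 2, both drug efflux pumps, ABCC4 (0.44, adjusted p = 0.0494) and ABCB5 (−1.11, adjusted p = 0.0295), the latter detected on no array. The ABC probes called were 3, the median differences of pumps and lipid transporters −0.17 and −0.11, and ABCC5 turned to −0.056. ABCB1, at the floor, moved to −0.82 (adjusted p = 0.0662). With normexp background correction 1 gene was called, the lipid transporter ABCA1 (−0.48), and 2 probes, with 3527 of 36469 over the array, and ABCB1 (0.012) and ABCB9 (0.073) changed sign. A filter on the well-above-background flag called 1 gene, ABCC4, a drug efflux pump, and 2 probes, with 3630 of 28788 over the array. Without a filter the median of the lipid transporters was 0.10. Unpaired SAM called 0 of 52 ABC probes.

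With the replicate block, that is with same-numbered arrays paired, 7 probes and 3 genes were called, 1 a pump and 1 a lipid transporter, and over all probes 5421 against 2856.

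Leaving out each array, without the replicate block, called 0 ABC probes each time. Over the whole array, every omission but that of pre-control replicate 1 also called 0 probes, so these losses are not particular to the ABC probes. The median ranged from −0.056 to 0.118 over the pumps and from −0.074 to 0.143 over the lipid transporters. The sign changed for 17 of 44 genes, among them ABCB1 (−0.060 to 0.032), ABCC5 (−0.098 to 0.103), ABCC6 (−0.30 to 0.45), ABCF3 (−0.054 to 0.063), ABCB9 (−0.257 to 0.17), ABCG2 (−0.62 to 0.22) and ABCC9 (−0.051 to 0.484). With the mean of all probes of a gene, ABCB9 gave 0.19 and ABCC6 −0.24. The cause of these changes was not tested. The dimmer ABCB6 probe was called by limma under every other scaling, background correction, filter, flag, block and variance setting, not by SAM, and ABCB6 was not called by the mean of its probes (−0.29, adjusted p = 0.120). By the found flag 63 ABC probes were detected on all pre-control arrays, against 40.

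Dim probes limit the rest: 16 ABC probes were never well above background, and an interval that spans 0 does not show that a gene is unaffected.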
